A study of Mus musculus with 18 samples.

Results

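Of the 55421 genes in the striatal RNA-seq table, 7 encode GABA-A receptor subunits that were taken by name: the alpha subunit genes Gabra2, Gabra3, Gabra4 and Gabra5, the beta subunit genes Gabrb1 and Gabrb2, and the delta subunit gene Gabrd. Each was found by its Ensembl identifier, and all 7 had enough reads to be tested. Whole striatum was sequenced from 5 WT, 5 zQ175, 3 CK2a'(+/-) and 5 zQ175:CK2a'(+/-) mice, with 1 library per mouse, to ask how losing an allele of CK2a' changes striatal RNA in a Huntington's disease model. zQ175 mice carry an expanded CAG repeat knocked into their own Htt gene, as a chimeric human and mouse first exon. CK2a'(+/-) mice lack 1 allele of Csnk2a2, which encodes the CK2a' catalytic subunit of protein kinase CK2, and zQ175:CK2a'(+/-) mice carry both changes. All mice were 12 to 14 months old on a C57BL/6 background, were anesthetized with Avertin and perfused with heparinized saline, and differed by genotype with no drug group. The allele changes are present in every cell, so no genotype is confined to a neuron type.

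GABA-A receptors are pentameric chloride channels that open when they bind GABA, and most combine alpha and beta subunits with a gamma or a delta subunit. Gamma-containing receptors, held at synapses by the scaffold protein gephyrin, carry fast inhibition, whereas receptors with the delta subunit sit mostly outside synapses and carry a tonic current at low GABA concentrations. In the striatum the delta subunit pairs mainly with the alpha subunit encoded by Gabra4, and the projection neurons that use these receptors, the medium spiny neurons, are the cells most affected in Huntington's disease.

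Most of these genes lie beside other subunit genes in the GRCm38 genome. Gabra2 (chr5:70957597-71095849), Gabra4 (chr5:71569749-71658308) and Gabrb1 (chr5:71658113-72149037) form a cluster with Gabrg1. Gabra5 (chr7:57407672-57510059) lies beside Gabrg3, Gabrb2 (chr11:42419757-42629028) beside Gabra6, and Gabra3 (chrX:72432681-72656848) between Gabre and Gabrq. Gabrd (ENSMUSG00000029054, chr4:155384980-155398112, minus strand) is the exception among the 7, with its nearest subunit gene, Gabrr1, 122221391 bases away. Gabrd is also the shortest, with a span of 13133 bases and 2875 bases of exon, and no other annotated gene overlaps it. Gabra4 and Gabrb1 run on opposite strands with overlapping 5′ ends that share 46 exonic bases. Their RefSeq start sites are 387 bases apart, and both promoter windows (GRCm38.p6, 250 bases before to 50 after the start, with CpG pairs in capitals) are shown because this pair could exchange reads if strand was not used in counting, which the sources do not state. The Gabra4 window is chr5:71658259-71658558 on the minus strand and the Gabrb1 window chr5:71657671-71657970 on the plus strand.
Gabra4: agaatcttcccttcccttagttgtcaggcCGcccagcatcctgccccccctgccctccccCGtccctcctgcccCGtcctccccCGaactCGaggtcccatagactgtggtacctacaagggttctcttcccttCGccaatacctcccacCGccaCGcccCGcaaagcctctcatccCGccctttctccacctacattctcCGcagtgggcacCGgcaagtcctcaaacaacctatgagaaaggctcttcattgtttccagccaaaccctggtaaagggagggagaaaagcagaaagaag
Gabrb1: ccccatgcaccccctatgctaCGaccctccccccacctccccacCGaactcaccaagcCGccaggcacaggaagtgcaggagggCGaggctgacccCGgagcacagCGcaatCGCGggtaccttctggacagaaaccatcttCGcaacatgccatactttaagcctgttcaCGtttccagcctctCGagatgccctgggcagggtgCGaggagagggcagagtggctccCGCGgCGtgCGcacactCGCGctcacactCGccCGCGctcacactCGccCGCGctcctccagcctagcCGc
The Gabrb1 window held 25 CpG pairs and the Gabra4 window 12. On either strand, the letters GGGCGG of a GC box occurred 2 times in the Gabra4 window and 0 times in the Gabrb1 window, and 35.7% of 32851 RefSeq promoter windows of the same length held them. The table of promoters had an entry for 6 of the 7 genes, and Gabrd was the gene without one.

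Total counts per library ranged from 13612381 to 22702547. Csnk2a2 followed the labels, at 14.7 to 19.9 counts per 1000000 (CPM, scaled by TMM normalization) in the 8 mice labelled with 1 allele and 29.4 to 37.5 CPM in the other 10. Htt was 129 to 188 CPM in WT and 139 to 165 CPM in zQ175 mice, and these counts do not tell the alleles apart. Markers of striatal projection neurons were present in every library, and their summed level was 3027 to 7117 CPM in WT and 1652 to 3349 CPM in zQ175. Some libraries stood apart in markers of neighbouring regions. zQ175 replicate 1 had the highest sum of thalamic markers (1181 CPM) and the lowest of projection neuron markers (1652 CPM), and zQ175 replicate 5 the highest sums of cortical (402 CPM) and hippocampal markers (173 CPM). Among WT mice, replicates 4 and 5 had the lowest projection neuron sums (3131 and 3027 CPM). Without zQ175 replicates 1 and 5 no gene at all passed between zQ175 and WT in edgeR (2113 had an unadjusted p under 0.05), as was also the case without WT replicate 3 or zQ175 replicate 5 alone and when only these 2 groups were fitted. Xist, which is expressed from the inactive X chromosome of females, was above 500 CPM in 4 of 5 WT, 2 of 5 zQ175, 1 of 3 CK2a'(+/-) and 4 of 5 zQ175:CK2a'(+/-) mice, so the sexes are not balanced between genotypes. With Xist as a covariate Gabrd kept its calls, with log2 fold changes of -0.65 between zQ175 and WT (adjusted p = 0.0602) and -1.02 on the CK2a'(+/-) background (adjusted p = 0.0071).

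Levels of different genes were compared per length, as CPM per kilobase of exon. In WT striatum Gabra4 was the highest of the 7 genes at 22.3 ± 4.14 (SD, n = 5) per kilobase, followed by Gabrb2 at 17.1 ± 1.47 and Gabrd at 16.8 ± 3.31. Gabrb1 (8.97 ± 1.13), Gabra3 (8.84 ± 1.32), Gabra2 (7.80 ± 1.61) and Gabra5 (4.70 ± 1.21) were lower. The ranges of Gabrb2 and Gabrd overlapped, as did those of each pair of neighbours from Gabrb1 to Gabra5, so these orders do not exceed the spread between mice. Gabrd stood apart from Gabrb1 in WT, with ranges that did not overlap, whereas the ranges of these genes overlapped in zQ175 (means of 10.8 and 10.5 per kilobase) and zQ175:CK2a'(+/-) mice (10.2 and 8.67). In CK2a'(+/-) mice the mean of Gabrd (20.9) was above that of Gabrb2 (18.4), and their ranges overlapped.

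**Figure D1:**
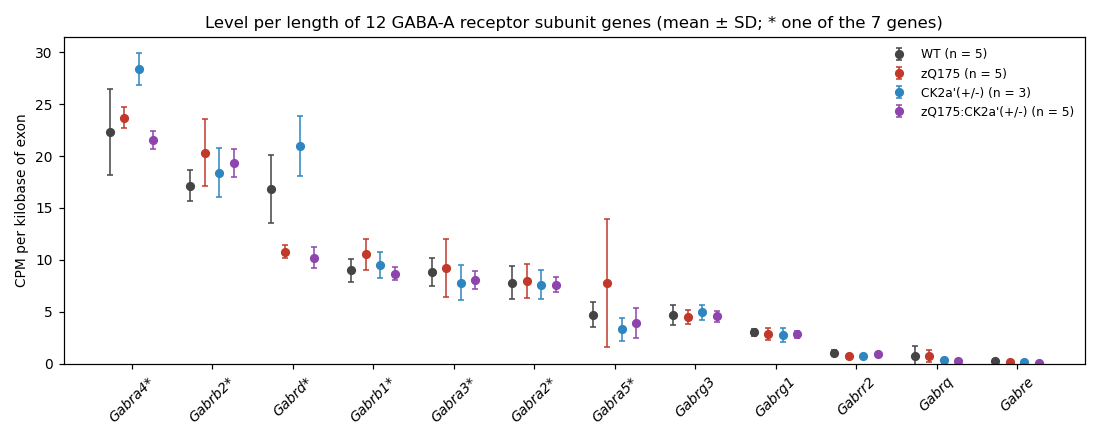
Level per length (CPM per kilobase of exon, vertical axis) of 12 GABA-A receptor subunit genes tested, ordered by their WT mean, with 1 point and bar (mean ± SD over mice) per genotype and the 7 chosen genes starred. Gabrd falls from 16.8 in WT to 10.8 in zQ175 per kilobase, while Gabra4 is at 22.3 and 23.7 and Gabrb2 at 17.1 and 20.3 in the same 2 groups.

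Gabrd was the gene that changed. Its level was 53.4, 54.5, 55.8, 33.0 and 45.1 CPM in WT replicates 1 to 5, and 32.9, 28.6, 32.4, 31.0 and 30.0 CPM in the zQ175 mice. It was 53.3, 57.8 and 69.5 CPM in the CK2a'(+/-) mice and 31.3, 26.9, 25.6, 32.7 and 30.4 CPM in the zQ175:CK2a'(+/-) mice. All 10 mice with the zQ175 allele therefore lay below all 8 without it, although WT replicate 4 was only just above the highest zQ175 mouse. How many of all genes split the mice in this way was not counted. The libraries held 375 to 1322 Gabrd reads each.

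In zQ175 mice Gabrd fell by 35.9% against WT (log2 fold change -0.64, SE 0.121, 95% interval -0.89 to -0.39, adjusted p = 0.0469 in edgeR). It was the 1 member of the 7 that passed the adjusted threshold of 0.1, where 1.1% of all 20914 genes passed in either direction and 0.712% passed as lower. DESeq2 also called it, as it did 2.28% of its 37559 genes. That base counts every gene given a p-value, with or without an adjusted p. Shares from DESeq2 and edgeR are therefore on unlike bases. The Gabrd groups did not overlap, as was true of 1.19% of genes in this direction. In zQ175:CK2a'(+/-) mice Gabrd fell by 51.1% against CK2a'(+/-) mice (log2 fold change -1.03, SE 0.136, 95% interval -1.32 to -0.75, adjusted p = 0.0019), and again 1 of the 7 genes passed, against 0.593% of all genes and 0.368% as lower. Here too its groups did not overlap, as for 4.48% of genes in this direction. By unadjusted p it ranked 2 of the 20914 genes in that comparison. Against WT, zQ175:CK2a'(+/-) mice had a Gabrd level that fell by 39.1% (log2 fold change -0.72, adjusted p = 0.0752), where 0.0143% of all genes passed in edgeR and 0.327% in DESeq2, and 0.899% had groups that did not overlap in this direction. Averaged over both CK2a' genotypes, the zQ175 difference in Gabrd was -0.84 on the log2 scale (SE 0.091, adjusted p = 0.0002), 1 of the 7 genes passed against 4.9% of all genes (4.03% in DESeq2), and Gabrd ranked 1 of all genes tested by p. These comparisons share their samples and are not independent of each other.

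No difference in Gabrd between CK2a' genotypes passed. The level in CK2a'(+/-) mice was higher than in WT by 0.32 on the log2 scale (95% interval 0.03 to 0.60, unadjusted p = 0.0305), which did not pass adjustment (adjusted p = 0.9986), and the 2 groups overlapped. In that comparison all 13 projection neuron and all 8 thalamic markers were above 0 (medians 0.28 and 0.49). All 6 microglia markers were below 0 (median -0.09). No marker of these lists passed, and their part in the Gabrd difference was not tested. None of the 7 genes passed in edgeR or DESeq2 there (0 of 7, with 2 at an unadjusted p under 0.05), where 0.0143% and 0.0293% of all genes did and 4.48% had an unadjusted p under 0.05. Between zQ175:CK2a'(+/-) and zQ175 mice the difference in Gabrd was -0.07 with a 95% interval of -0.33 to 0.18, which leaves room for differences of that size. Again 0 of 7 genes passed with either tool, 2 had an unadjusted p under 0.05 against 6.27% of all genes, and 0.0143% of all genes passed in edgeR and 0.104% in DESeq2. The interaction, the zQ175 difference on the CK2a'(+/-) background minus that on the WT background, was -0.39 for Gabrd (SE 0.183, unadjusted p = 0.0444) and did not pass (adjusted p = 0.916). In the interaction 0 of 7 genes passed in edgeR or DESeq2, 3 had an unadjusted p under 0.05 against 5.39% of all genes, and 0.00478% of all genes passed in edgeR and 0.0506% in DESeq2.

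**Figure D2:**
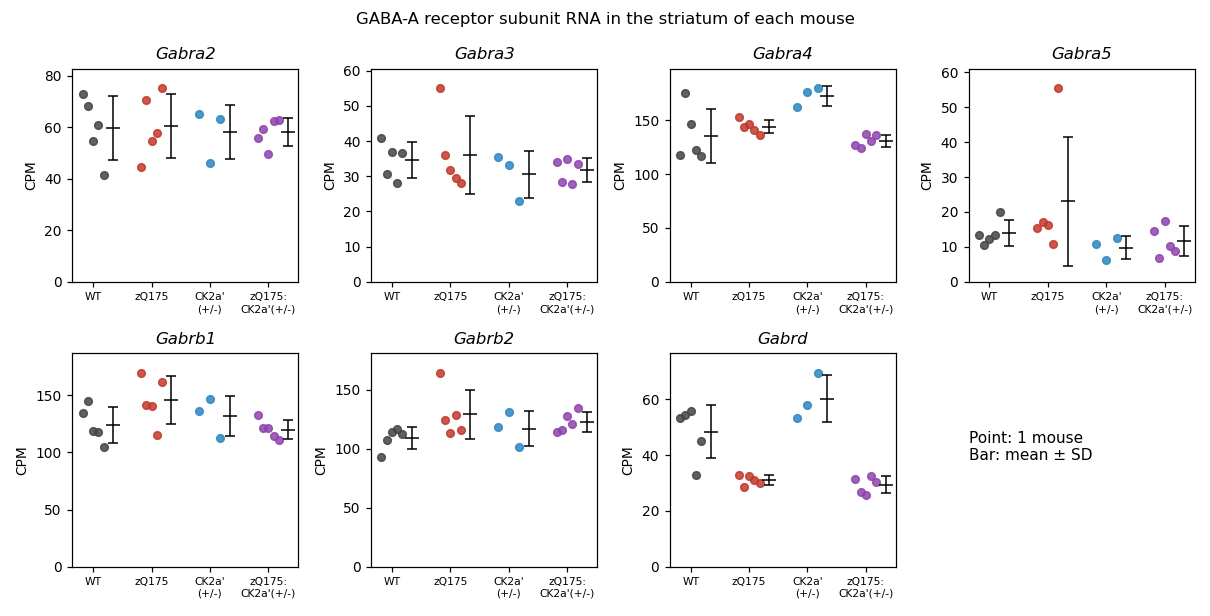
CPM (vertical axis, from 0) of each of the 7 subunit genes in every mouse, by genotype, with 1 point per mouse and a bar for the mean ± SD. In the Gabrd panel the 10 mice with zQ175 sit between 25.6 and 32.9 CPM and the 8 mice without it between 33.0 and 69.5 CPM, and in the Gabra5 panel 1 zQ175 mouse stands at 55.5 CPM.

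The fall in Gabrd on the CK2a'(+/-) background held without any 1 of the 18 mice (adjusted p at most 0.0321). The call between zQ175 and WT was lost without WT replicate 1 (adjusted p = 0.119), WT replicate 3 (0.155) or zQ175 replicate 5 (0.106), and also with zQ175 replicates 1 and 5 left out together (log2 fold change -0.66, adjusted p = 0.245) or when only these 2 groups were fitted (adjusted p = 0.145), with a log2 fold change between -0.75 and -0.58 throughout the single-mouse omissions. With WT replicates 4 and 5 left out it was -0.82 with an adjusted p of 0.0003. The call between zQ175:CK2a'(+/-) and WT was lost in 9 of the 18 omissions, with an adjusted p of up to 0.225, reached without zQ175:CK2a'(+/-) replicate 3. It was also lost when only these 2 groups were fitted (adjusted p = 0.160) and with the replicate number as a block (0.218).

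Markers of striatal projection neurons moved in the same direction as Gabrd. Of 13 projection neuron markers, 3 were lower in zQ175 than in WT (Adora2a, the adenosine receptor of indirect-pathway neurons, Penk, the enkephalin precursor, and Ppp1r1b, the dopamine-regulated phosphatase inhibitor DARPP-32), none were higher, and the list's median log2 fold change was -0.66 against 0.004 over all genes. On the CK2a'(+/-) background 2 of the 13 were lower and the median was -0.78, and in the averaged comparison 9 of 13 were lower with a median of -0.73. The summed level of this list was 3027 to 7117 CPM in WT, 1652 to 3349 CPM in zQ175, 5026 to 7026 CPM in CK2a'(+/-) and 2765 to 3910 CPM in zQ175:CK2a'(+/-) mice, with every marker of the list detected in each group. Of 5 oligodendrocyte markers, 3 (Mobp, Cnp and Mbp) were also lower in zQ175 than in WT, as was C1qa among 6 microglia markers, all 6 with estimates below 0. All 7 astrocyte and 7 of 10 interneuron markers were also below 0 (medians -0.11 and -0.33), 3 of 5 endothelial markers were (median -0.08), and 4 of 5 pan-neuronal markers were above 0 (median 0.16), with none passing in these 4 lists in edgeR and Chat and Map2 passing in DESeq2. The summed level of the pan-neuronal markers was 2976 to 3212 CPM in WT and 3278 to 3711 CPM in zQ175, with no overlap. In the same comparison all 9 cortical markers were above 0 (median 1.27, 1 passed), as were all 6 hippocampal markers (median 1.03, 1 passed) and 6 of 8 thalamic markers (median 0.64, none passed). On the CK2a'(+/-) background 3 of 9 cortical, 3 of 6 hippocampal and none of 8 thalamic markers were above 0 (medians -0.13, 0.02 and -0.81), and none passed in edgeR. There 1 of 5 oligodendrocyte markers passed as lower, and no astrocyte, microglia or pan-neuronal marker passed. In the averaged comparison 2 of 5 oligodendrocyte and 1 of 7 astrocyte markers passed as lower in edgeR. As higher, 1 pan-neuronal and 1 cortical marker passed in that comparison. Without zQ175 replicates 1 and 5 the medians were -0.49 for projection neuron, 0.81 for cortical and 0.49 for hippocampal markers, and no marker passed between zQ175 and WT. In whole striatum, fewer cells of a type and less RNA per cell cannot be told apart, and the part of these marker changes in the Gabrd result was not tested.

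Gabra4, the usual partner of the delta subunit in striatum, did not follow Gabrd between zQ175 and WT. Its level was 117, 175, 147, 122 and 117 CPM in WT replicates 1 to 5 and 137 to 153 CPM in the 5 zQ175 mice. The CK2a'(+/-) mice had 162, 176 and 180 CPM and the zQ175:CK2a'(+/-) mice 124 to 137 CPM. The zQ175 mice lay inside the range of WT, whereas all zQ175:CK2a'(+/-) mice lay below all CK2a'(+/-) mice, as did the groups of 4.48% of genes in this direction.

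The log2 fold change of Gabra4 was 0.09 between zQ175 and WT (95% interval -0.10 to 0.28, adjusted p = 0.721) and -0.40 between zQ175:CK2a'(+/-) and CK2a'(+/-) mice (95% interval -0.62 to -0.18, adjusted p = 0.132). The second difference passed in DESeq2 (adjusted p = 0.0535, where 0.857% of genes passed), without a filter on low counts (0.0695), when only the 2 groups were fitted (0.0110), without WT replicate 2 (0.0259) and with WT replicates 4 and 5 left out (0.0615), so its call depends on the processing while its direction does not. Against WT, Gabra4 in CK2a'(+/-) mice was higher by 0.35 (unadjusted p = 0.0033, adjusted p = 0.9986), and the adjusted p was 0.0728 without WT replicate 2, the WT mouse with the highest level. The interaction for Gabra4 was -0.49 (SE 0.140, unadjusted p = 0.0023, adjusted p = 0.811).

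The ratio of Gabrd to Gabra4 per length set these genes side by side within each library. It was 0.962, 0.658, 0.804, 0.573 and 0.815 in WT replicates 1 to 5 and 0.422 to 0.469 in the zQ175 mice. It was 0.695 to 0.818 in the CK2a'(+/-) mice and 0.396 to 0.530 in the zQ175:CK2a'(+/-) mice. No mouse with zQ175 reached the lowest ratio of a mouse without it, and WT replicate 4, the WT mouse with the least Gabrd, was again the nearest. Of the summed per-length level of the 7 genes, Gabrd made up 19.3% ± 2.74 in WT, 12.0% ± 1.26 in zQ175, 21.8% ± 2.94 in CK2a'(+/-) and 12.9% ± 1.30 in zQ175:CK2a'(+/-) mice (SD, n = 5, 5, 3 and 5). These ratios are descriptions with no test, and they show unequal change of the 2 genes rather than the constancy of either.

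**Figure D3:**
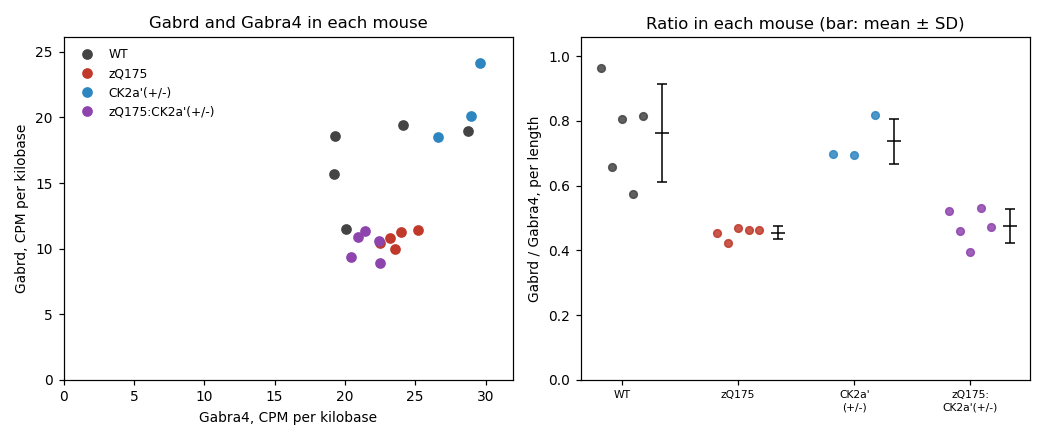
Left, Gabrd against Gabra4 (CPM per kilobase of exon) with 1 point per mouse, coloured by genotype; right, their ratio in each mouse with the mean ± SD per genotype. The zQ175 and zQ175:CK2a'(+/-) mice lie at ratios of 0.396 to 0.530, and the WT and CK2a'(+/-) mice at 0.573 to 0.962.

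Gabra5, whose subunit forms extrasynaptic receptors best known from hippocampal pyramidal neurons, had the lowest mean of the 7 genes in WT, with a range that overlapped that of Gabra2 per length. It was 10.5 to 20.1 CPM in WT, 6.17 to 12.4 CPM in CK2a'(+/-) and 6.89 to 17.4 CPM in zQ175:CK2a'(+/-) mice. In the zQ175 mice it was 15.4, 17.0, 16.2, 10.8 and 55.5 CPM, and replicate 5 stood far above the other 17 mice. The log2 fold change between zQ175 and WT was 0.72 (adjusted p = 0.361), and it became 0.09 without zQ175 replicate 5. Between zQ175:CK2a'(+/-) and zQ175 mice it was -0.99 (unadjusted p = 0.0106, adjusted p = 0.633) and became -0.35 without that mouse. The same library had the highest sums of cortical and hippocampal markers, and their part in the Gabra5 level was not tested. Gabra5 also shares 148 exonic bases with an antisense gene, Gm9962, which held 698 reads over the 18 libraries against 4981 for Gabra5.

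The beta subunit genes, which complete the GABA binding site with the alpha subunits, had no difference past the threshold. Gabrb2 was 93.4 to 117 CPM in WT, 113 to 165 CPM in zQ175, 101 to 131 CPM in CK2a'(+/-) and 114 to 134 CPM in zQ175:CK2a'(+/-) mice. Its highest value was that of zQ175 replicate 1, and the WT and zQ175 ranges overlapped. The log2 fold change of Gabrb2 between zQ175 and WT was 0.25 (95% interval 0.04 to 0.45, adjusted p = 0.264), and 0.16 without zQ175 replicates 1 and 5. Gabrb1 was 105 to 145 CPM in WT and 116 to 170 CPM in zQ175, with 113 to 146 CPM in CK2a'(+/-) and 111 to 133 CPM in zQ175:CK2a'(+/-) mice. Its 2 highest values were those of zQ175 replicates 1 and 5. The log2 fold change of Gabrb1 was 0.23 between zQ175 and WT (adjusted p = 0.328) and -0.28 between zQ175:CK2a'(+/-) and zQ175 mice (95% interval -0.50 to -0.06, adjusted p = 0.643). Without zQ175 replicates 1 and 5 these became 0.09 and -0.14. Across the 18 mice, Gabrb1 and its head-to-head neighbour Gabra4 had a Pearson correlation of 0.356 in log2 CPM.

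Gabra2 and Gabra3, alpha subunit genes of synaptic receptors, had no difference past the threshold in any comparison. Gabra2 was 41.6 to 73.0 CPM in WT and 44.4 to 75.2 CPM in zQ175 (log2 fold change 0.02, 95% interval -0.29 to 0.33), and 45.9 to 64.9 CPM in CK2a'(+/-) and 49.5 to 62.9 CPM in zQ175:CK2a'(+/-) mice. Gabra3 was 28.1 to 41.0 CPM in WT and 28.1 to 55.1 CPM in zQ175 (log2 fold change 0.06, 95% interval -0.28 to 0.40), and 23.0 to 35.4 CPM in CK2a'(+/-) and 27.8 to 34.8 CPM in zQ175:CK2a'(+/-) mice. The groups of both genes overlapped in every pair of genotypes compared. The 55.1 CPM of Gabra3 was again zQ175 replicate 1, and that mouse had the highest level of 3 of the 7 genes.

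**Figure D4:**
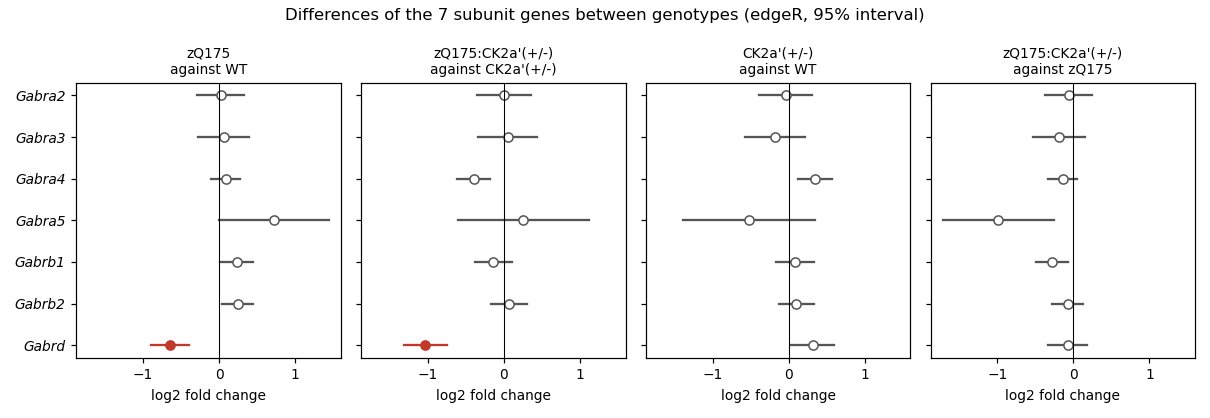
Log2 fold change (horizontal axis) of the 7 subunit genes in 4 comparisons between genotypes, with the 95% interval from the edgeR fit and filled red points for an adjusted p under 0.1. Gabrd is the filled point in both comparisons of a zQ175 group with its own control, at -0.64 and -1.03, and no gene is filled in the other panels.

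In all, 6 of the 7 genes passed in none of the 7 comparisons in edgeR. The median log2 fold change of the 7 was 0.09 between zQ175 and WT, where the median over all genes was 0.004. Between zQ175:CK2a'(+/-) and zQ175 mice all 7 estimates were below 0, with a median of -0.14 against -0.005 over all genes, although none passed in edgeR or DESeq2. Without zQ175 replicates 1 and 5 the median was -0.07 and Gabrb2 was above 0, and leaving out single zQ175 mice also turned the sign of Gabra2, Gabra3 or Gabrb2. With all mice, the 9 cortical, 6 hippocampal and 8 thalamic markers were all below 0 in this comparison (medians -0.95, -0.95 and -0.87). Of the projection neuron markers 11 of 13 were above 0, as were all 5 oligodendrocyte markers (medians 0.19 and 0.29). The part of these markers in the subunit estimates was not tested.

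The other subunit genes gave no call. Of 9 further GABA-A receptor subunit genes, 5 had enough reads to be tested and 4 (Gabra6, Gabrp, Gabrr1 and Gabrr3) did not. In none of the 7 comparisons did any of the 5 pass in edgeR or DESeq2, and between zQ175 and WT none had an unadjusted p under 0.05. Averaged over CK2a' genotype, none of the 5 had one either, and all 5 estimates were below 0. Gabre was at -0.84 on the log2 scale (SE 0.636, adjusted p = 0.563), as low as Gabrd but on few reads and with an interval of -2.17 to 0.48, and Gabrq at -0.20, while Gabrg1, Gabrg3 and Gabrr2 lay between -0.09 and -0.02. The averaged Gabrq estimate was 0.32 without WT replicate 1 and -0.52 without zQ175 replicate 1, so its sign depended on 1 mouse. Gabrq had an unadjusted p under 0.05 in 2 comparisons, at -1.31 between zQ175:CK2a'(+/-) and zQ175 mice and -1.38 between zQ175:CK2a'(+/-) and WT mice (adjusted p = 0.778 and 0.504). The first was -0.68 without zQ175 replicate 1 and the second -0.32 without WT replicate 1, the mouse with the highest level in its group in each case. The rare X-linked subunit genes Gabre and Gabrq were at 12.7 CPM or less in every mouse.

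Genes that place, move and feed these receptors mostly did not pass. Of 38 such genes in 4 lists, 2 passed between zQ175 and WT in edgeR, where 1.1% of all genes did. Both calls were lost when only these 2 groups were fitted and without WT replicate 3 or zQ175 replicate 5, settings in which no gene at all passed. Slitrk3, a postsynaptic adhesion protein that organizes inhibitory synapses, was higher by 0.41 (SE 0.097, adjusted p = 0.0713), the 1 of 9 receptor scaffold genes to pass. Gabarap, which binds the gamma subunit and helps receptors reach the surface, was lower by 0.40 on the log2 scale (log2 fold change -0.40, SE 0.104, adjusted p = 0.0957), the 1 of 13 trafficking genes. Averaged over CK2a' genotype, Slitrk3 was higher by 0.36 (adjusted p = 0.0149) and Rdx, which encodes radixin, an anchor for extrasynaptic receptors, by 0.23 (adjusted p = 0.0846, and 0.148 without zQ175 replicates 1 and 5), and no trafficking gene passed in either tool. These 2 of the 38 genes stand against 4.9% of all genes, and the 6 of 38 at an unadjusted p under 0.05 (15.8%) against 16.2%, so both shares are near those of all genes. None of 10 genes for GABA synthesis, transport, breakdown and GABA-B receptors, and none of 6 chloride transporter and channel genes, passed in any comparison in edgeR or DESeq2, with 1 and 0 of them at an unadjusted p under 0.05 between zQ175 and WT, against 13.9% of all genes. On the CK2a'(+/-) background 0 of the 38 passed in either tool and 4 had an unadjusted p under 0.05, against 9.19% of all genes. None passed with either tool in CK2a'(+/-) against WT, zQ175:CK2a'(+/-) against zQ175 or WT, or the interaction, and 0, 9, 3 and 4 of the 38 had an unadjusted p under 0.05, against 4.48%, 6.27%, 9.13% and 5.39% of all genes. The 9 between zQ175:CK2a'(+/-) and zQ175 mice are 23.7% of the 38, and 6 of them belong to the list of GABA supply and GABA-B receptor genes. Gad1 and Gad2, which make GABA, were at 0.36 and 0.25, Slc32a1, the vesicular GABA transporter, at 0.29, and Abat, which breaks GABA down, at 0.21, while Gabbr2, a GABA-B receptor subunit gene, was at -0.83 and the GABA transporter gene Slc6a13 at -1.01 (adjusted p from 0.597 to 0.759). Without zQ175 replicates 1 and 5, of which replicate 5 had the lowest sum of this list (1982 CPM), 1 of the 10 genes and 1 of the 38 had an unadjusted p under 0.05, against 4.5% of all genes. Without replicate 1 alone these were 3 and 4, and without replicate 5 alone 4 and 4.

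The genes whose levels were most like that of Gabrd over the 18 libraries were Vwa7 (Pearson r = 0.937), Rap1gap (0.921) and Smarcd3 (0.916), and their correlations within genotypes were 0.766, 0.717 and 0.891. Smarcd3 was thus the gene that tracked Gabrd most closely of these 3 once the genotype means were removed. For Gabra4 the most alike genes were 1700123O21Rik (0.875), Atl2 (0.868) and Rgs7bp (0.863). Those of Gabrb2 were Strbp (0.900), Slc4a8 (0.892) and Frmd4a (0.887), and those of Gabrb1 were Sfmbt1 (0.844), Nmt2 (0.821) and Ptprg (0.809). For Gabra3 they were Palm2 (0.880), Nap1l5 (0.879) and Camk2d (0.869), for Gabra2 Zfp976 (0.842), Strc (0.809) and Nucb2 (0.799), and for Gabra5 Mycl (0.849), Sertm1 (0.837) and Cpne6 (0.829). Without the 2 mice farthest from the median of Gabra5, which include zQ175 replicate 5, the r of Cpne6 was 0.424. The points share libraries, genotypes and tissue composition, and these correlations are descriptions. Among the 7 genes themselves, the pair of Gabrd and Gabra4 had a Pearson correlation of 0.530, the highest of the 21 pairs. Within genotypes it was 0.462, below the 0.573 of Gabra3 and Gabrb2.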

How the data were processed

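Total RNA of striatum was sequenced from 18 mice with a stranded library kit. Per the labels and the study's methods, reads were trimmed (Trimmomatic) and mapped by HISAT2 2.1.0 to the GRCm38 genome, and the authors deposited the read count of each gene from Subread 1.6.2, not normalized, with summed exon lengths as the other deposited value. Whether counting used strand is not given in the sources used here. Of 55421 identifiers, 55154 matched a symbol.

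Groups were taken from sample titles, and replicates are separate mice. In R 4.3.3, edgeR 4.0.16 tested the 20914 genes kept by filterByExpr with TMM normalization and its quasi-likelihood test, in 1 fit of 18 libraries with genotype as the only factor, for 7 comparisons: 5 pairs of genotypes, their interaction, and the zQ175 effect averaged over CK2a' genotype. Genes passed at a Benjamini-Hochberg adjusted p under 0.1 over all genes tested. In simulated data of the same genes, 90.5% of 200 genes changed by 1 on the log2 scale between zQ175 and WT were recovered. The genes changed were drawn from those above a minimum mean level. Smaller changes and the other comparisons were not simulated. Library totals of 13612381 to 22702547 counts limit the precision of the rarest genes. Sequences are from RefSeq.

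The members and gene lists were chosen with earlier results of these data known. The genes named were the 7 members, other subunit genes tested, up to 4 genes per list that passed, the 3 genes most correlated with each member, and Csnk2a2 and Htt as label checks. Gad1, Gad2, Slc32a1, Abat, Gabbr2 and Slc6a13 did not pass and were named outside this rule, for their unadjusted p. Alternatives were DESeq2 1.42.0 with default settings, its size factors used by edgeR, every gene kept whatever its count, a minimum of 10 counts in 10% of libraries, a fit of the groups involved alone, a block for the replicate number, Xist as covariate, a robust fit, an adjusted p under 0.05, TPM for levels per length, and leaving out each mouse. Some genes of the lists are not reported here. Leaving out zQ175 replicates 1 and 5, or WT replicates 4 and 5, was added after seeing the data.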

Additional observations from a re-analysis of the deposited data

Results flagged for a closer look

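The Gabra5 level of zQ175 replicate 5, 55.5 CPM, lay farther from the rest of its group than Dixon's test allows at 95% confidence, with a gap of 0.861 of the group's whole range and a group median of 16.2 CPM. The 21 groups of 5 mice that could be tested gave this 1 flag, and chance alone flags about 1 in 20 groups.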

How the results depend on the processing

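The fall of Gabrd kept its direction under every alternative run, and DESeq2 called it in each of the 4 comparisons in which edgeR did. Over the 49 member differences, 1407 values under alternatives were computed, of which 1311 kept their direction and side of the threshold, 17 lost and 7 gained a call, and 72 changed sign. The number of members called was 0 between zQ175 and WT with only the groups compared or with zQ175 replicates 1 and 5 left out, 0 between zQ175:CK2a'(+/-) and WT with only the groups compared, with the replicate block or at an adjusted p under 0.05, and 2 (Gabra4 and Gabrd) between zQ175:CK2a'(+/-) and CK2a'(+/-) with DESeq2, no filter, only the groups compared or WT replicates 4 and 5 left out, the last also giving 2 in the averaged comparison. Leaving out 1 mouse gave 0 to 1 members between zQ175 and WT, 1 to 2 on the CK2a'(+/-) background, 0 to 1 between CK2a'(+/-) and WT (Gabra4, without WT replicate 2) and 0 to 1 between zQ175:CK2a'(+/-) and WT.

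The count of all genes called depended on the processing. Between zQ175 and WT it was 230, and became 855 with DESeq2, 451 with no filter, 0 with only the groups compared (2337 at an unadjusted p under 0.05), 98 with the replicate block, 148 with Xist as covariate, 51 at an adjusted p under 0.05, 0 without zQ175 replicates 1 and 5 and 515 without WT replicates 4 and 5. On the CK2a'(+/-) background it was 124, and became 322, 297, 461, 12, 77, 27, 222 and 291 in the same order. For CK2a'(+/-) against WT it was 3, and became 11 with DESeq2, 19 with no filter, 0 with only the groups compared, 1 with the replicate block and 1 without WT replicates 4 and 5. For zQ175:CK2a'(+/-) against zQ175 it was 3, and became 39, 51 and, with the replicate block, 1. For zQ175:CK2a'(+/-) against WT it was 3, and became 123, 85, 1 with only the groups compared, 1 with the replicate block, 6 with the robust fit, 1 at an adjusted p under 0.05 and 217 without WT replicates 4 and 5. For the interaction it was 1, and became 19 with DESeq2, 10 with no filter, 0 with Xist, 0 at an adjusted p under 0.05 and 0 with either pair of mice left out. For the averaged comparison it was 1024, and became 519 with the replicate block and 469 at an adjusted p under 0.05. Leaving out 1 mouse gave 0 to 587, 6 to 221, 1 to 9, 1 to 6, 1 to 34, 0 to 2 and 348 to 1161 genes in these 7 comparisons. The cause of these changes was not tested.

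Changes of sign touched differences that were not called, most of them near 0, with the interaction of Gabra5 (-0.47) as the exception. Between zQ175 and WT, Gabra3 became -0.019 with Xist, -0.095 without zQ175 replicates 1 and 5 and -0.0058 without WT replicates 4 and 5, which also gave -0.11 for Gabra2 and -0.024 for Gabra4. On the CK2a'(+/-) background Gabra2 became -0.0012 with no filter and -0.020 with the replicate block. Between CK2a'(+/-) and WT Gabrb1 became -0.0069 without WT replicates 4 and 5, and between zQ175:CK2a'(+/-) and zQ175 Gabrb2 became 0.0099 without zQ175 replicates 1 and 5. In the interaction Gabra2 became 0.0083 with Xist and 0.12 without WT replicates 4 and 5, Gabra3 0.12 with the replicate block, 0.25 with Xist, 0.15 without zQ175 replicates 1 and 5 and 0.057 without WT replicates 4 and 5, and Gabra5 0.19 without zQ175 replicates 1 and 5. In the averaged comparison Gabra2 became -0.055 and Gabrb1 -0.0017 without WT replicates 4 and 5, and Gabra3 -0.022 and Gabrb1 -0.021 without zQ175 replicates 1 and 5. Leaving out 1 mouse turned the sign of 17 of the 49 differences in 52 of these omissions. It gave -0.085 to 0.11 for Gabra2 and -0.15 to 0.14 for Gabra3 between zQ175 and WT, and -0.14 to 0.091 for Gabra2, -0.12 to 0.17 for Gabra3 and -0.023 to 0.16 for Gabrb2 on the CK2a'(+/-) background. Gabra2 between CK2a'(+/-) and WT gave -0.15 to 0.10. Between zQ175:CK2a'(+/-) and zQ175 it gave -0.15 to 0.033 for Gabra2, -0.26 to 0.018 for Gabra3 and -0.12 to 0.030 for Gabrb2, and between zQ175:CK2a'(+/-) and WT -0.15 to 0.027 for Gabra2 and -0.11 to 0.045 for Gabra4. The interaction gave -0.16 to 0.086 for Gabra2, -0.18 to 0.20 for Gabra3 and -0.72 to 0.17 for Gabra5, and the averaged comparison -0.062 to 0.059 for Gabra2, -0.047 to 0.11 for Gabra3 and -0.0035 to 0.088 for Gabrb1.

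Same-numbered mice did not deviate together (24 pairs, correlations -0.136 to 0.120, 1 of 18 libraries nearest its own number), so the samples share only a number and no pairing was drawn from it.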

Other observations

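Gabra3 lies on the X chromosome between Gabre and Gabrq, which encode rare subunits, and the same 2 mice had the highest levels of all 3 genes. WT replicate 1 had 41.0 CPM of Gabra3, 2.79 CPM of Gabre and 12.7 CPM of Gabrq, and zQ175 replicate 1 had 55.1, 1.73 and 9.33 CPM. The next highest mouse had 1.40 CPM of Gabre (CK2a'(+/-) replicate 3) and 3.88 CPM of Gabrq (zQ175 replicate 2). For Gabra3 it had 36.9 CPM (WT replicate 3), so that WT replicate 1 was close to the rest for that gene. Gabre rested on few reads, with 56 in WT replicate 1 and 37 in zQ175 replicate 1. Xist was low in both mice (0.50 and 4.55 CPM), as in 5 other mice, all with 47.0 CPM or less, that did not have this pattern. The pattern was noticed after the values were seen, and no test was run on it.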
